A study of Schizosaccharomyces pombe with 72 samples.

Results

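The MBF complex of fission yeast was followed through its 3 core subunit genes, cdc10, res1 and res2, its activator gene rep2 and its corepressor genes nrm1 and yox1. The genes were chosen by symbol, and the 6 made up the set among 7014 genes with counts. All 6 passed the filter on low counts, which left 6396 genes for testing. RNA-sequencing counts were taken from 72 libraries of Schizosaccharomyces pombe, with 4 strains and 3 replicates in each of 6 growth conditions.

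G1_36.5 cells (strains 82, 83, 84 and 85) carried the thermosensitive cdc10-129 allele and were held in G1 in the rich medium YES at 36.5°C. V36.5 and V25 cells (strains 86, 92, 93 and 97) cycled in YES, at 36.5°C for a single doubling or at 25°C. T0-N cells were the same strains after 24 hr in EMM2-N, a synthetic medium without a nitrogen source, at 25°C. T4D36.5 and T4D25 cells came from the T0-N cultures and stayed in EMM2-N for another 4 days, at 36.5°C or at 25°C. Every condition held a wild-type strain, the cohesin loader mutant mis4-G1487D, the TORC1 mutant mip1-R401G and the double mutant. The strain numbers are not paired with these genotypes here, so no genotype was compared with another. The G1 block was made with a mutation in one of the genes described, and G1_36.5 and V36.5 were different strains, so the arrest, the allele and the strain background cannot be told apart.

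MBF is the transcription factor that switches on genes for DNA replication at the passage from G1 to S phase. Cdc10 is its core subunit, and it works with Res1 and Res2, which bind DNA at the MCB motif, a short CG-rich sequence. Rep2 is an activator that acts through Res2. Nrm1 and Yox1 are corepressors that bind MBF and shut its targets off after S phase, and both of their genes are themselves MBF targets, which closes a negative feedback loop. Cells with the cdc10-129 allele stop at the end of G1 at the restrictive temperature.

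The places of the genes are given on the ASM294v2 genome. cdc10 (SPBC336.12c) lies on chromosome II from 2760741 to 2763830 on the minus strand, in 1 exon. res1 (SPBC725.16) lies on chromosome II from 1232588 to 1235587, and res2 (SPAC22F3.09c) on chromosome I from 686543 to 689179, both on the plus strand with 2 exons. rep2 (SPBC2F12.11c), nrm1 (SPBC16A3.07c) and yox1 (SPBC21B10.13c) are genes of 1 exon on the plus strand of chromosome II, from 1717715 to 1719322, from 4285899 to 4288583 and from 1648153 to 1650147. Genes on the opposite strand overlap 48.5% of the exon bases of nrm1 (tad1), 32% of yox1 (rec6), 15.2% of cdc10 (vps52), 6.1% of rep2 (mrpl35) and 2.9% of res1 (rrn11). A further 7.9% of yox1 overlaps dpm2, and res2 has no such neighbour. The counts keep the strands apart, since 524 of 553 genes that lie inside an exon of a gene on the other strand had counts, and 314 of them exceeded that gene in some library. No stretch of 58 bases, the read length, from any of the 6 genes was found elsewhere in the genome.

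The MCB core ACGCGT, which reads the same on both strands, and the related AACGCG, searched on both strands, were looked for from 250 bases before to 50 bases after each gene start. AACGCG was present in nrm1 and yox1 and ACGCGT in yox1, so 2 of the 6 genes held a match, while cdc10, res1, res2 and rep2 held none in this window. Of 5137 coding genes, 5.96% held AACGCG and 3.02% held ACGCGT. Of 10 known MBF targets, 8 held AACGCG and 6 held ACGCGT, with overlaps between both motifs at some sites. The 250 bases before the starts of both corepressor genes are shown because they hold the matches (RefSeq sequence, plus strand, 5′ to 3′). The capitals mark AACGCG or its reverse complement. For nrm1 they cover chrII:4285649-4285898 and for yox1 chrII:1647903-1648152.
nrm1: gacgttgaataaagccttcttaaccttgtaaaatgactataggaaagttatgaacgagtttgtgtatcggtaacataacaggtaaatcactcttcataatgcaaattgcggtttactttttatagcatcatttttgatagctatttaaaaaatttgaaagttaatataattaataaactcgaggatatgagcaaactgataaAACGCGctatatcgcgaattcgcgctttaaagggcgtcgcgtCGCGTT
yox1: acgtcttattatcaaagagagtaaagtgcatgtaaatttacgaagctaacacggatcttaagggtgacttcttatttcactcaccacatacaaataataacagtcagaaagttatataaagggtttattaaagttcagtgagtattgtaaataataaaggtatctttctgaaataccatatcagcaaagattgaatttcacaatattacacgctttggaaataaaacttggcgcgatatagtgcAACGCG
The nrm1 matches begin 48 and 6 bases before the gene start. In yox1 AACGCG begins 6 bases before the start and ACGCGT 22 bases after it. These starts are those of the annotation used for counting. RefSeq starts nrm1 at 4285944 and places yox1 from 1648232 to 1648840, a shorter gene. Both yox1 matches lie before that RefSeq start. The yox1 counts, overlaps and levels per kb in the text use the longer form. A match is a description of the sequence and not a measured binding site.

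Each library held between 1173880 and 7664476 counts on genes (median 4021412). T4D36.5 libraries were the shallowest in median, from 1173880 to 4617602, and G1_36.5 libraries held from 3759770 to 7664476. Levels are given as CPM, counts scaled to the library total after TMM normalization. Marker lists were checked against the growth labels. A list of 10 genes of late mitosis and septation summed to a median of 491 CPM in G1_36.5 libraries (from 351 to 681) and 2730 CPM in V36.5 libraries (from 1980 to 3960). A list of 7 genes of the response to nitrogen loss summed to 17200 CPM in T0-N libraries (from 10500 to 28800) and 236 CPM in V25 libraries (from 207 to 316). The same list stood at 553 CPM in G1_36.5 libraries (from 373 to 826) and 188 CPM in V36.5 libraries (from 163 to 328), with no overlap, although both grew with nitrogen. Since a CPM is a share of the library, more cells in a stage and more RNA per cell cannot be told apart.

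Of the 6 transcripts, rep2 had the widest range over the growth conditions. cdc10 had a median of 115 CPM in G1_36.5 libraries (from 91.8 to 142), 74.1 CPM in T4D36.5 (from 53.1 to 95.3), 77.2 CPM in V36.5 (from 65 to 94.1), 79.7 CPM in T4D25 (from 69.8 to 96), 64.1 CPM in T0-N (from 49.6 to 75.8) and 69.1 CPM in V25 (from 59.7 to 77.8). G1_36.5 thus stood at the top for cdc10, while the ranges of the other 5 conditions overlapped each other.

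rep2 had a median of 128 CPM in G1_36.5 (from 88 to 175), 12.6 CPM in T4D36.5 (from 8.19 to 24), 89 CPM in V36.5 (from 71.6 to 104), 45.1 CPM in T4D25 (from 33.2 to 55.9), 75.8 CPM in T0-N (from 51.2 to 93.3) and 103 CPM in V25 (from 88.8 to 119). Every T4D36.5 library lay below every library of the other conditions. The next lowest, T4D25, overlapped T0-N only at its upper end, and the 4 remaining conditions overlapped their neighbours in the order G1_36.5, V25, V36.5 and T0-N. The counts behind the T4D36.5 values were small, from 10 to 100 per library.

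res1, for the DNA-binding subunit used mainly in mitotic growth, had a median of 88.2 CPM in G1_36.5 (from 69.5 to 106), 43 CPM in T4D36.5 (from 29.9 to 57.8), 76.5 CPM in V36.5 (from 61 to 104), 78 CPM in T4D25 (from 64.2 to 112), 68.2 CPM in T0-N (from 50.4 to 86.6) and 80.8 CPM in V25 (from 70.6 to 91.8). Only T4D36.5 stood low, and it overlapped T0-N. res2, for the subunit that also serves meiosis, had a median of 30 CPM in G1_36.5 (from 25.9 to 36.4), 43 CPM in T4D36.5 (from 23.8 to 61.1), 31.6 CPM in V36.5 (from 25.3 to 50.7), 21.6 CPM in T4D25 (from 18.3 to 24.6), 20.2 CPM in T0-N (from 16.9 to 28.5) and 26.1 CPM in V25 (from 19.8 to 30.5). With the conditions ordered by their res2 median, each overlapped the next.

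nrm1 had a median of 58.3 CPM in G1_36.5 (from 41.8 to 72.7), 68 CPM in T4D36.5 (from 45.6 to 101), 80.8 CPM in V36.5 (from 60.7 to 117), 49.8 CPM in T4D25 (from 41.4 to 67.4), 63.4 CPM in T0-N (from 48.7 to 80) and 75.6 CPM in V25 (from 54.3 to 105). The cycling conditions held its highest libraries. yox1 had a median of 55 CPM in G1_36.5 (from 47.7 to 70.4), 58.3 CPM in T4D36.5 (from 47.1 to 70.1), 43.9 CPM in V36.5 (from 36.9 to 61.7), 39.6 CPM in T4D25 (from 28.6 to 43.2), 43.1 CPM in T0-N (from 36.2 to 56.8) and 32.5 CPM in V25 (from 21.3 to 41.5). Both conditions of arrested cells sampled at 36.5°C held the highest yox1 medians, with overlap with V36.5.

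Per kilobase of exon, rep2 was the most abundant of the 6 genes in G1_36.5, with a median level of 79.5 CPM per kb, ahead of cdc10 at 37.1 and res1 at 30.7. In T4D36.5 it was the least abundant, at a median level of 7.81 CPM per kb, and yox1 was the most abundant at 29.2. In V25 the median levels per kb were 64.1 for rep2, 28.2 for nrm1, 28.1 for res1, 22.4 for cdc10, 16.3 for yox1 and 10.6 for res2. Per kb res2 had the lowest median level of the 6 genes in every condition except T4D36.5, where res1 and rep2 were lower.

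**Figure D1:**
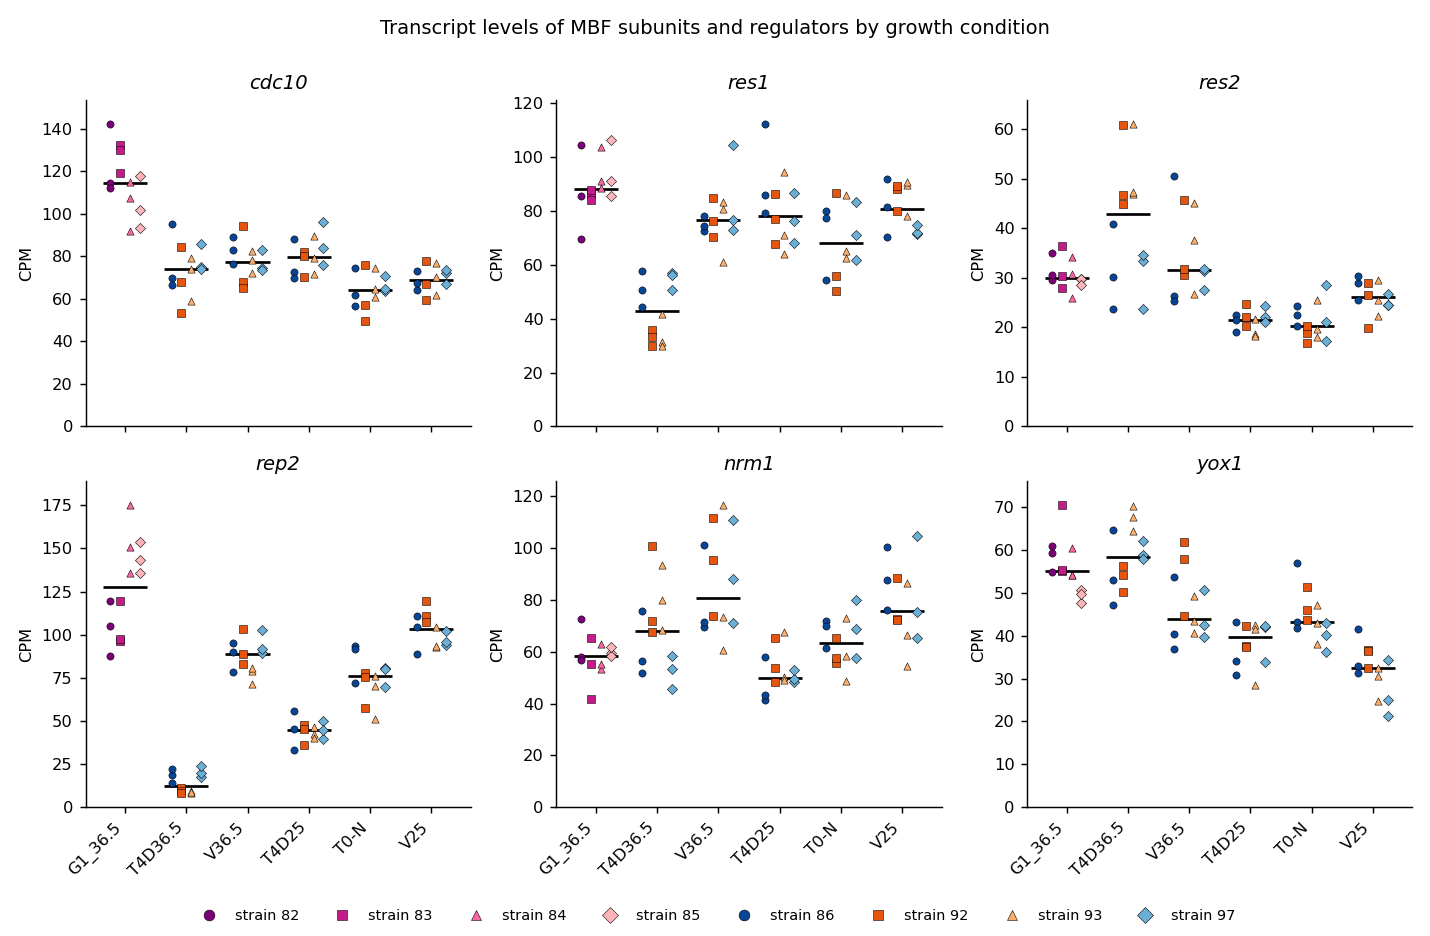
CPM of each gene (vertical axes, from 0) in every library of the 6 growth conditions. Points are libraries, symbols and colours are strains and bars are medians of 12 libraries. rep2 lies between 8.19 and 24 CPM in T4D36.5 and at 33.2 CPM or more in every other library.

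The first comparison asked how transcript levels of the 6 genes stood in an arrest made with a mutation in cdc10. The activity of MBF was not measured. In G1_36.5 against V36.5, cdc10, rep2, yox1 and res1 were higher and nrm1 was lower, while res2 did not pass the test. The adjusted p was below 0.05 for 5 of the 6 genes, against a background of 67.4% of all genes tested, with 36.4% higher and 31% lower. The share of the 6 is near that background. The median change of the 6 genes was 0.24 on the log2 scale and that of all genes 0.05.

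cdc10 was 1.46-fold higher in the arrested cells (log2 fold change 0.54, standard error 0.0735, edgeR adjusted p = 7.01e-09, Benjamini-Hochberg over the quasi-likelihood F tests), and 10 of 12 G1_36.5 libraries lay above the highest V36.5 library. The counts do not show which allele was transcribed. Averaged over the strains, rep2 was 1.43-fold higher (log2 fold change 0.51, standard error 0.0724, edgeR adjusted p = 2.03e-08), with 9 of 12 G1_36.5 libraries above the highest V36.5 library. The rise was uneven among the G1_36.5 strains. Mean rep2 was 104.3 and 104.5 CPM in strains 82 and 83, and 154 and 144.4 CPM in strains 84 and 85. The V36.5 strain means ran from 77.1 to 94.5 CPM. nrm1 was 1.47-fold lower (log2 fold change -0.55, standard error 0.101, edgeR adjusted p = 3.96e-06), and 8 of 12 G1_36.5 libraries lay below the lowest V36.5 library. For each of the 6 genes at least 1 library of one condition lay within the range of the other. Across all genes tested, 10.6% had libraries of both conditions that did not overlap.

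yox1, the partner of nrm1 in repression, moved the other way and was 1.19-fold higher (log2 fold change 0.26, standard error 0.075, edgeR adjusted p = 0.00249). res1 was 1.17-fold higher (log2 fold change 0.22, standard error 0.0829, edgeR adjusted p = 0.0167), and res2 stood at -0.13 on that scale (standard error 0.0974, edgeR adjusted p = 0.242). Replicate numbers mark batches in the labels. Within the 3 numbers the log2 difference lay between 0.53 and 0.57 for cdc10, 0.36 and 0.64 for rep2, -0.74 and -0.38 for nrm1, 0.19 and 0.42 for yox1, 0.06 and 0.33 for res1 and -0.40 and 0.04 for res2. The calls of res1 (edgeR adjusted p = 0.0941 and 0.258 without replicates 1 and 2) and yox1 (0.126 without replicate 3, and 0.0524 with counts summed per strain) were lost in some alternatives, whereas cdc10, rep2 and nrm1 passed in all 20.

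The genes that MBF drives were mostly lower in the arrested cells. Of 10 MBF targets, 8 were lower, 1 was higher and 1 did not pass (edgeR, adjusted p below 0.05), with a median log2 fold change of -1.19. The list leaves out nrm1 (-0.55) and yox1 (0.26), which are also MBF targets. tos4, which encodes a protein with a phosphopeptide-binding domain, fell by 2.20 on the log2 scale (standard error 0.0974). cdc22, for the large subunit of ribonucleotide reductase, fell by 2.05 (standard error 0.0648). cdt2, for an adaptor of a ubiquitin ligase active in S phase, was the target that was higher (log2 fold change 0.47, standard error 0.0775). The summed level of the 10 targets had a median of 687 CPM in G1_36.5 libraries (from 622 to 773) and 1670 CPM in V36.5 libraries (from 1500 to 2440), with no overlap. Much of that sum was cdc22, with medians of 184 CPM in G1_36.5 and 761 CPM in V36.5.

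Of 10 other genes that regulate MBF or the G1 to S passage, 2 were higher, 3 were lower and 5 did not pass in the same fit. puc1, for a G1 cyclin, was higher by 0.27 on the log2 scale (standard error 0.0998), a call lost in 6 of 20 alternatives, and cdc2, for the main cyclin-dependent kinase, by 0.22 (standard error 0.0569). cig2, for a cyclin that restrains MBF and is also listed as a target, fell by 1.22 (standard error 0.0719), and pef1, for a kinase that activates MBF, fell by 0.41 (standard error 0.0869). All 10 genes of late mitosis and septation were lower, with a median log2 fold change of -2.43. Among them were eng1, for a septum-degrading glucanase (-3.88, standard error 0.178), and adg1 (-3.16, standard error 0.17). Of the 7 genes of the response to nitrogen loss, 5 were higher, 1 was lower and 1 did not pass. mfm1 and mfm2, for precursors of the mating pheromone M-factor, were higher by 5.42 and 4.71 (standard errors 0.279 and 0.341), and fnx1 fell by 0.46 (standard error 0.0922). The mfm1 value rests on a reference near 0. Its median was 0.662 CPM in V36.5 libraries (from 0 to 2.56) and 27 CPM in G1_36.5 libraries (from 13.2 to 57.7). Of the 4 heat shock genes, hsp16 was higher (1.94, standard error 0.182) but not with counts summed per strain (edgeR adjusted p = 0.259), hsp90 fell by 0.98 (standard error 0.0958), and 2 did not pass. The part of these shifts in the changes of the 6 genes was not tested.

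**Figure D2:**
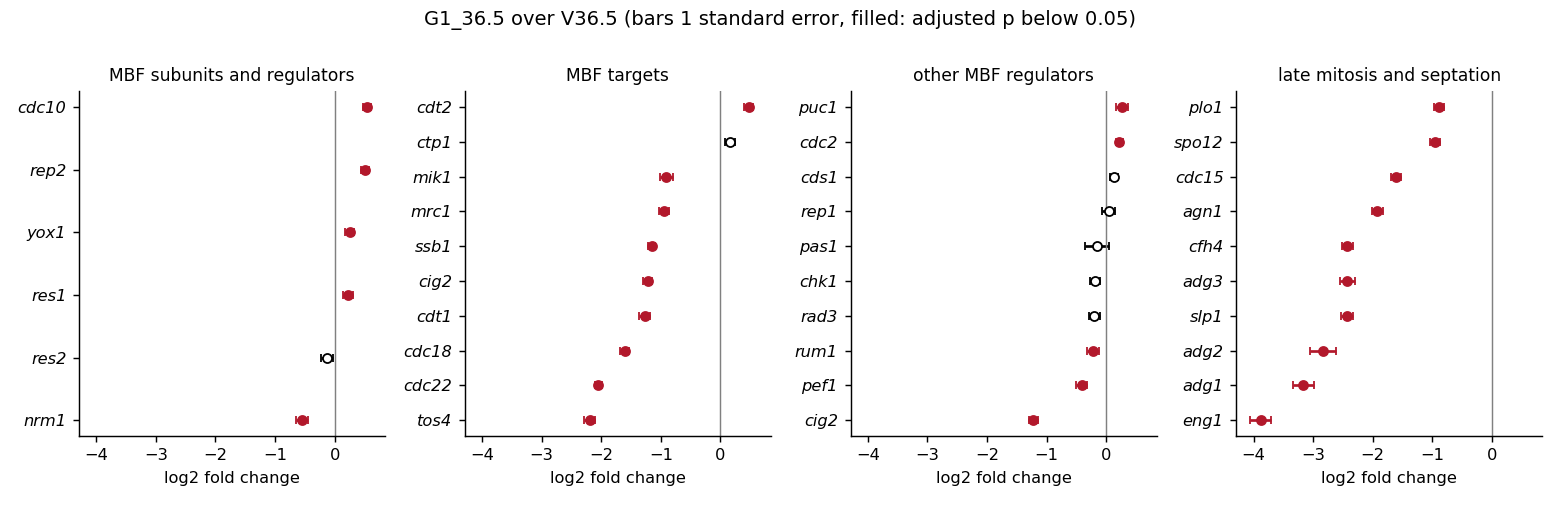
Log2 fold change of G1_36.5 over V36.5 (horizontal axes) for the 6 genes and 3 lists of related genes. Bars are 1 standard error and filled points passed an adjusted p of 0.05 in edgeR. The 6 genes lie between -0.55 and 0.54, while MBF targets reach -2.20 and late mitotic genes -3.88.

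In cycling cells the shift to 36.5°C was followed by higher yox1 and res2. V36.5 against V25 gave 3 genes higher, 1 lower and 2 that did not pass, against a background of 64% of all genes called, 32.8% higher and 31.1% lower. yox1 was 1.48-fold higher (log2 fold change 0.57, standard error 0.0801, edgeR adjusted p = 1.71e-08), with 8 of 12 V36.5 libraries above the highest V25 library. res2 was 1.29-fold higher (log2 fold change 0.37, standard error 0.102, edgeR adjusted p = 0.0014). cdc10 was 1.13-fold higher (edgeR adjusted p = 0.0366) and rep2 1.16-fold lower (edgeR adjusted p = 0.00835). These smaller changes were lost without single replicates, namely replicate 1 or 2 for cdc10 (edgeR adjusted p = 0.299 and 0.0544), 2 for res2 (0.0522) and 2 or 3 for rep2 (0.0765 and 0.116). The rep2 call was also lost with at least 10 counts in every library (0.156), where nrm1 passed (0.23, edgeR adjusted p = 0.0458), and without ribosomal RNA genes (0.0546). The heat response itself was seen in 4 of 4 listed heat shock genes, which were all higher. Their summed level had a median of 13400 CPM in V36.5 libraries (from 7540 to 18900) and 4790 CPM in V25 libraries (from 2990 to 7970), with overlap. The V25 libraries were uneven, with hsp16 from 4.26 to 475 CPM.

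After 24 hr without nitrogen, 4 of the 6 genes were lower and yox1 was higher than in V25 cells, with cdc10 not passing. The background was 82.2% of all genes, 45.4% higher and 36.9% lower. rep2 was 1.37-fold lower (log2 fold change -0.45, standard error 0.0742, edgeR adjusted p = 1.88e-07), and 10 of 12 T0-N libraries lay below the lowest V25 library. yox1 was 1.40-fold higher (log2 fold change 0.48, standard error 0.0801, edgeR adjusted p = 2.5e-07), with 9 of 12 T0-N libraries above the highest V25 library. res2, nrm1 and res1 had log2 fold changes of -0.31, -0.30 and -0.24 (standard errors 0.105, 0.103 and 0.0851). The res1 and res2 calls were lost without replicate 2 (edgeR adjusted p = 0.0631 and 0.0504), and the res1 call also without replicate 1 (0.114). With at least 10 counts in every library res1 (0.13), res2 (0.0539) and nrm1 (0.0612) did not pass. cdc10 passed without replicate 1 (-0.22, edgeR adjusted p = 0.0108). This comparison also spans the change of medium, which cannot be told apart from the loss of nitrogen. The same 4 strains served in both conditions, and rep2 was lower and yox1 higher in each of them, by -0.68 to -0.24 and by 0.41 to 0.58 on the log2 scale.

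After 4 more days at 25°C rep2 was lower again, though not with spike-in library sizes. T4D25 against T0-N gave 2 genes higher and 3 lower, against a background of 53.3% of all genes, 26% higher and 27.2% lower. rep2 was 1.70-fold lower (log2 fold change -0.76, standard error 0.0763, edgeR adjusted p = 2.78e-12), and 11 of 12 T4D25 libraries lay below the lowest T0-N library. Conditions did not overlap for 7.96% of all genes and for none of the 6. cdc10 was 1.24-fold higher (log2 fold change 0.31, standard error 0.0752, edgeR adjusted p = 0.000475). res1 (0.21), nrm1 (-0.30) and yox1 (-0.20) passed with smaller margins, and each lost its call without 2 of the 3 replicates in turn (edgeR adjusted p from 0.0633 to 0.189). The res1 call was also lost with at least 10 counts in every library (0.0557). These directions are relative to the other genes of a library. Spike-in RNAs were present in the starved libraries alone, and with library sizes set by them the median gene was 0.96 higher in T4D25 on the log2 scale and rep2, nrm1 and yox1 turned to 0.22, 0.67 and 0.70, each still below that median. rep2 did not pass on that scale (edgeR adjusted p = 0.333), and res2 did (0.94, edgeR adjusted p = 0.000103).

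**Figure D3:**
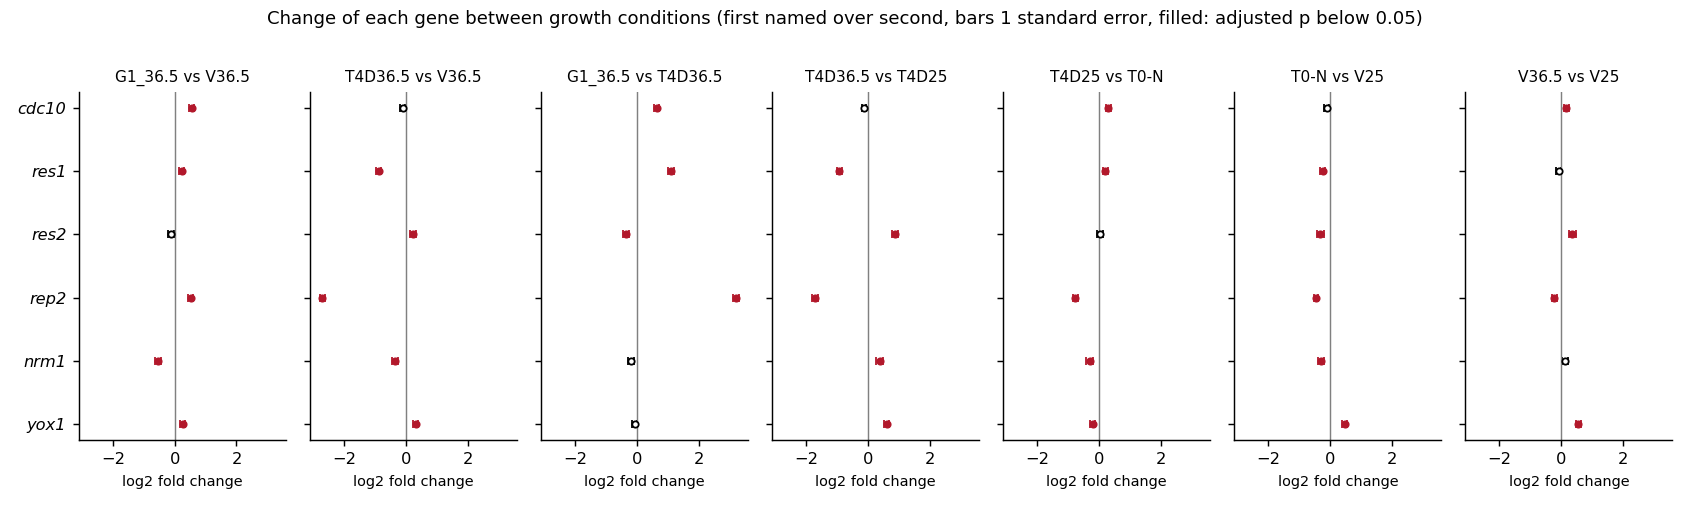
Log2 fold change (horizontal axes, the first named condition over the second) of the 6 genes in 7 comparisons, with bars of 1 standard error. Filled points passed an adjusted p of 0.05 in edgeR. rep2 spans from -2.71 in T4D36.5 against V36.5 to 3.22 in G1_36.5 against T4D36.5. With spike-in library sizes, rep2, nrm1 and yox1 change sign in T4D25 against T0-N, and res2, nrm1 and yox1 in T4D36.5 against T4D25.

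Heat in starved cells was accompanied by lower rep2 and res1. In T4D36.5 against T4D25, rep2 and res1 were lower, res2, yox1 and nrm1 were higher (directions of these 3 that turn with spike-in library sizes), and cdc10 did not pass, against a background of 69.8% of all genes called, 33.5% higher and 36.4% lower. rep2 was 3.27-fold lower (log2 fold change -1.71, standard error 0.0925, edgeR adjusted p = 2.8e-23) and res1 1.90-fold lower (-0.93, standard error 0.0897, edgeR adjusted p = 1.81e-13). res2 was 1.85-fold higher (0.89, standard error 0.103, edgeR adjusted p = 6.21e-11) and yox1 1.53-fold higher (0.61, standard error 0.0784, edgeR adjusted p = 9.91e-10). nrm1 was 1.30-fold higher (0.38, standard error 0.106, edgeR adjusted p = 0.00146). rep2, res1 and yox1 did not overlap between the conditions, which held for 14.8% of all genes.

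With spike-in library sizes the median gene was 0.95 lower in T4D36.5 on the log2 scale, and res2, nrm1 and yox1 turned to -0.046, -0.59 and -0.25, each still above that median. rep2 and res1 were lower on that scale too, at -2.62 and -1.87. The cdc10 value (-0.13, edgeR adjusted p = 0.132) passed with spike-in library sizes (-0.99, edgeR adjusted p = 2.01e-05), close to the median gene on that scale, with the replicate number as a block (edgeR adjusted p = 0.0446) and without replicate 3 (-0.27, 0.0128). Of the 10 MBF targets, 5 were higher, 1 was lower and 4 did not pass, with a median log2 fold change of 0.25, and with spike-in library sizes 1 was higher and 6 were lower (median -0.65). Of the 10 other regulators, 2 were higher and 3 lower, against none higher and 9 lower with spike-in library sizes. Among all genes that scaling called 5239, of which 9.81% were higher.

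The listed heat shock genes did not move together in the starved cells. hsp16, for a small heat shock protein, was higher in T4D36.5 than in T4D25 (log2 fold change 2.12, standard error 0.185), hsp104 was lower (-0.30, standard error 0.123), and the other 2 of the 4 did not pass (edgeR, adjusted p below 0.05). hsp104 was named after its value was seen. Their summed level had a median of 2210 CPM in T4D36.5 libraries (from 1610 to 2910) and 1720 CPM in T4D25 libraries (from 1500 to 1940), with overlap. With spike-in library sizes, where the median gene stood at -0.95, hsp16 was higher (1.20) and the other 3 were lower. All 7 genes of the response to nitrogen loss were lower in T4D36.5, with a median log2 fold change of -1.86, or -2.73 with spike-in library sizes. The part of these shifts in the changes of the 6 genes was not tested.

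The strains did not respond to the same extent. In T4D36.5 libraries the means of rep2 were 18.3 ± 4.23 CPM in strain 86, 9.65 ± 1.51 in strain 92, 9.01 ± 0.771 in strain 93 and 20.6 ± 3.15 in strain 97 (SD, n = 3 each). The single libraries lay at 18.9, 13.8 and 22.2 CPM in strain 86, 11.3, 9.30 and 8.34 in strain 92, 8.19, 9.73 and 9.10 in strain 93, and 17.7, 20.1 and 24 in strain 97. Strains 92 and 93 lay below strains 86 and 97 in each library. In T4D25 libraries the means were 44.8 ± 11.4, 43 ± 6.16, 43 ± 3.28 and 44.9 ± 5.4 CPM in strains 86, 92, 93 and 97, within their spread of each other. The change of rep2 between the temperatures was -1.26, -2.10, -2.19 and -1.11 on the log2 scale in these strains.

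Differences among the 4 strains in T4D36.5 passed for rep2 (edgeR adjusted p = 4.95e-06), res2 (0.000663), res1 (0.000994) and nrm1 (0.0422), against a background of 32.5% of all genes. cdc10 (0.637) and yox1 (0.302) did not pass, although both did with spike-in library sizes (edgeR adjusted p = 5.84e-05 and 0.00103). That scaling called 5217 genes in this test, most of those fitted, against 2079 with TMM. res1 averaged 50.9 ± 6.68 CPM in strain 86, 33 ± 3.01 in strain 92, 34.3 ± 6.31 in strain 93 and 54.7 ± 3.58 in strain 97. res2 had the reverse order, with 31.6 ± 8.67, 50.8 ± 8.75, 51.8 ± 8.06 and 30.6 ± 5.91 CPM in strains 86, 92, 93 and 97. nrm1 had 61.3 ± 12.8, 80 ± 18.2, 80.7 ± 12.5 and 52.5 ± 6.35 CPM in the same strains. The nrm1 call was lost without replicate 1 or 2 (edgeR adjusted p = 0.36 and 0.151), without the T4D36.5 libraries of replicate 3 (0.225), with spike-in library sizes (0.0767) and without ribosomal RNA genes (0.0575). That of res1 was lost without replicate 2 (0.283) and that of res2 without replicate 1 (0.0723) and with spike-in library sizes (0.341). Libraries of strains 92 and 93 held from 1173880 to 2592589 counts and those of strains 86 and 97 from 1339415 to 4617602, and the part of depth in these differences was not tested.

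A test of whether the T4D36.5 to T4D25 change itself differed among the strains, added after these values were seen, passed for rep2 (edgeR adjusted p = 0.0019) and res2 (0.0344), but not for res1 (0.129) or nrm1 (0.712), against a background of 11% of all genes. The rep2 call was lost without replicate 2 (0.109) or 3 (0.0609), and the res2 call without replicate 1 (0.36) or 2 (0.418), without the T4D36.5 libraries of replicate 3 (0.0593) and with spike-in library sizes (0.968). With the replicate number as a block res1 passed too (0.0109). In T4D25, T0-N, V36.5 and V25 none of the 6 genes passed the test among strains with TMM normalization, where the backgrounds were 1.8%, 2.81%, 10.1% and 19.4% of all genes. At an unadjusted p below 0.05 edgeR called none of the 6 in these 4 conditions either, with the lowest p at 0.0581 for yox1 in V25. With spike-in library sizes 4 of the 6 passed in T0-N, namely rep2 (edgeR adjusted p = 0.0371), nrm1 (0.0414), res2 (0.0415) and res1 (0.0432). That scaling called 2059 genes in T0-N, against 180 with TMM.

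**Figure D4:**
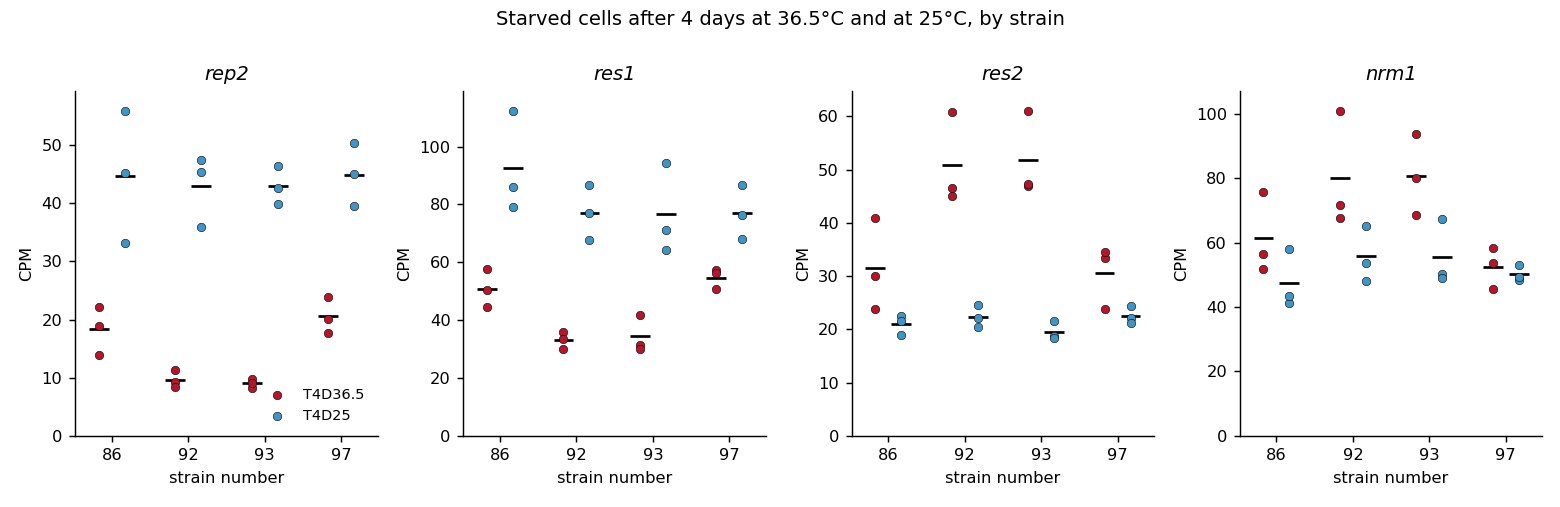
CPM (vertical axes, from 0) of rep2, res1, res2 and nrm1 in T4D36.5 libraries (red, left) and T4D25 libraries (blue, right) by strain number. Points are libraries and bars are means of 3. rep2 means are 9.65 and 9.01 CPM in T4D36.5 libraries of strains 92 and 93, and 18.3 and 20.6 CPM in strains 86 and 97. The direction of res2 and nrm1 between the temperatures turns with spike-in library sizes.

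Among the G1_36.5 strains, only rep2 of the 6 genes differed (edgeR adjusted p = 0.00133, background 11.3% of all genes). Strain 84 held 136, 151 and 175 CPM and strain 85 held 136, 154 and 143 CPM, while strain 82 held 88, 120 and 105 CPM and strain 83 held 96.3, 120 and 97.4 CPM. The libraries of strains 84 and 85 lay above all libraries of strains 82 and 83. The call was lost without replicate 3 (edgeR adjusted p = 0.0821).

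The 2 kinds of arrested cells sampled at 36.5°C were then set against each other and against V36.5, which shares its libraries with the comparison of the G1 block. The T4D36.5 cells had lost nitrogen at 25°C for 24 hr before their shift to 36.5°C. In T4D36.5 against V36.5, rep2 was 6.53-fold lower (log2 fold change -2.71, standard error 0.0904, edgeR adjusted p = 9.39e-34), against 1.43-fold higher in G1_36.5. res1 was 1.84-fold lower (-0.88, standard error 0.0898, edgeR adjusted p = 3.36e-13), nrm1 1.28-fold lower (-0.35, standard error 0.104, edgeR adjusted p = 0.0017) and yox1 1.25-fold higher (0.33, standard error 0.0777, edgeR adjusted p = 0.000155). cdc10 did not pass (-0.10, edgeR adjusted p = 0.22), although it did without replicate 3 (-0.27, edgeR adjusted p = 0.00899), without the T4D36.5 libraries of that replicate (0.0176), without ribosomal RNA genes (0.0173) and with no filter on low counts (0.025). The res2 call (0.23, edgeR adjusted p = 0.03) was lost in 6 of 11 alternatives, among them each replicate left out, and stood at 0.026 without the T4D36.5 libraries of replicate 3. Of all genes 82.1% were called, 42.7% higher and 39.3% lower. rep2 and res1 did not overlap, as for 35.6% of all genes. Growth state, medium and time at 36.5°C cannot be told apart in this comparison, and spike-in library sizes could not be fitted for it.

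In the direct comparison of G1_36.5 with T4D36.5, rep2 was 9.32-fold higher (log2 fold change 3.22, standard error 0.0895, edgeR adjusted p = 1.68e-37) and res1 2.15-fold higher (1.10, standard error 0.0885, edgeR adjusted p = 6.08e-17). Neither overlapped, as for 37.6% of all genes. cdc10 was 1.56-fold higher (0.64, standard error 0.0751, edgeR adjusted p = 3.18e-11), and 10 of 12 G1_36.5 libraries lay above the highest T4D36.5 library. res2 was 1.29-fold lower (-0.36, standard error 0.0985, edgeR adjusted p = 0.000794), a call that was lost without replicate 3 (-0.19, edgeR adjusted p = 0.0535) and without the T4D36.5 libraries of that replicate (-0.17, 0.141). The corepressor genes nrm1 (-0.20, edgeR adjusted p = 0.0699) and yox1 (-0.07, edgeR adjusted p = 0.393) did not pass, though nrm1 passed with the replicate number as a block (-0.21, edgeR adjusted p = 0.00324), with DESeq2 size factors (0.0451) and in DESeq2 (adjusted p = 0.043). The background was 82.1% of all genes, 40.1% higher and 42% lower.

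The effect of heat differed between quiescent and cycling cells for 4 of the 6 genes, against 61.3% of all genes, 28.7% with a positive and 32.6% with a negative difference. The starved cells had 4 days at 36.5°C in EMM2-N, and the cycling cells a single doubling in YES. Growth state, medium and time at 36.5°C therefore cannot be told apart here. The change in T4D36.5 over T4D25 minus the change in V36.5 over V25 was -1.49 for rep2 (standard error 0.119, edgeR adjusted p = 4.48e-16), -0.86 for res1 (standard error 0.123, edgeR adjusted p = 2.84e-08), 0.52 for res2 (standard error 0.145, edgeR adjusted p = 0.0018) and -0.31 for cdc10 (standard error 0.108, edgeR adjusted p = 0.0122). The cdc10 call was lost without replicate 1 (edgeR adjusted p = 0.185) or 2 (0.11). The starved change of res2 turned from 0.89 to -0.046 with spike-in library sizes, a scaling that could not be fitted for cycling cells. yox1 was higher at 36.5°C in both settings, by 0.61 and 0.57, and its difference did not pass (0.04, standard error 0.112, edgeR adjusted p = 0.751), with the starved value turning under spike-in library sizes as above. The difference was negative for all 4 heat shock genes (median -2.14). nrm1 did not pass either (0.25, edgeR adjusted p = 0.142), although it did with the replicate number as a block (0.0164).

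Over the 24 combinations of strain and growth condition, the mean log2 CPM of rep2 and res1 ran together (Pearson r = 0.89), and res1 and res2 ran against each other (r = -0.56). These values are descriptions, since the points share libraries, strains and depth. T4D36.5 held the lowest medians of rep2 and res1 and the highest of res2, and no coefficient was computed without it. With TMM normalization rep2 and res1 parted in T4D25 against T0-N, at -0.76 and 0.21 on the log2 scale. Among 5287 genes compared, the profile most like rep2 was that of aph1 (r = 0.98), and those most like the others were mni1 for cdc10 (0.93), SPBC16G5.17 for res1 (0.95), bye1 for res2 (0.89), mug89 for nrm1 (0.83) and the antisense RNA ist1-antisense-1 for yox1 (0.89). The second in likeness were SPACUNK4.09 for rep2 (0.97), mug100 for cdc10 (0.90), med7 for res1 (0.93), rsm19 for res2 (0.89), tim23 for nrm1 (0.82) and SPNCRNA.1231 for yox1 (0.87). None of the 6 genes was among the pair most like another.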

How the data were processed

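RNA was depleted of ribosomal RNA, made into stranded libraries and sequenced as paired 58-base reads. The authors aligned reads to ASM294v2 with STAR 2.7.10a and deposited featureCounts 1.5.1 counts in annotated exons, without normalization, for 7014 genes and 92 spike-in RNAs. The study describes the 72 libraries as biological triplicates, and p-values measure the spread between them. T4D36.5 and T4D25 cells came from the same T0-N cultures, and the tests did not pair libraries by culture. The labels gave each library's growth condition, strain and replicate, which set the groups. The replicate number is a batch in the labels, and same-numbered libraries deviated together (mean correlation 0.334 within a growth condition, against -0.164 for different numbers). No pair of replicates agreed within sampling noise.

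Spike-in rows were left out. After filterByExpr and TMM, counts were fitted in edgeR 4.0.16 (R 4.3.3) as 1 model of 24 groups, with quasi-likelihood F tests averaged over strains and Benjamini-Hochberg adjustment over 6396 genes at 0.05. Standard errors are the log2 fold change over the square root of F. Log2 CPM used a prior count of 2. In simulated counts for G1_36.5 against V36.5 over 6261 genes, 93% of 1.5-fold and 99% of 2-fold changes were recovered, with 2.54% of calls false. Those counts were drawn independently for each library, with 100 genes changed at each fold and no shared batch deviation. In the real contrast 67.4% of genes were called, and whether these rates hold for it was not tested.

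The 6 genes and the lists were chosen with earlier results of these data known. 1 gene of the late mitosis and septation list is not reported here. The text names the 6 genes, up to 2 of the largest rises and 2 of the largest falls called in each list in G1_36.5 against V36.5, and the 2 genes most like each member (average log2 CPM of at least 3, not overlapping or adjacent to it). Sequences and RefSeq genes come from ASM294v3, which matched the table on chromosome and strand for 6809 of 6814 genes and in 97.8% of introns. Alternatives were DESeq2 1.42.0 and its size factors, other filters on low counts, the replicate block, each replicate or strain left out, counts summed per strain, no ribosomal RNA genes (49), and spike-in RNAs kept or used as library sizes. Figures used Python 3.11.15 and matplotlib 3.10.9.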

Additional observations from a re-analysis of the deposited data

Results flagged for a closer look

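The change with heat differed between starved and cycling cells in the interaction test for 4 genes. The log2 fold change of T4D36.5 over T4D25 minus that of V36.5 over V25 was -0.31 for cdc10, -0.86 for res1, 0.52 for res2 and -1.49 for rep2. Among all genes 61.3% differed in this test. Growth state, medium and time at 36.5°C cannot be told apart in it. The starved change of res2 turned to -0.046 with spike-in library sizes, a scaling that could not be fitted for cycling cells.

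The change of T4D36.5 over T4D25 differed among the 4 strains for rep2 (edgeR adjusted p = 0.0019) and res2 (edgeR adjusted p = 0.0344), in a test added after the values were seen. Among all genes 11% differed. No other result met the rules for a closer look, since the groups held 3 or 12 libraries and single outlying libraries were not tested for.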

How the results depend on the processing

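Over the growth comparisons of the 6 genes, 510 of 570 alternative values kept their direction and their side of the threshold, 34 lost and 14 gained the call, and 12 changed sign. In the tests among strains 345 of 360 did so, with 9 calls lost and 6 gained. In G1_36.5 against V36.5 the log2 fold change without 1 replicate ranged from 0.16 to 0.27 for res1 and from 0.16 to 0.30 for yox1, and yox1 was at 0.22 with counts summed per strain. The signs that changed without spike-in scaling belonged to values that did not pass: yox1 in the heat interaction at -0.049 with no filter, -0.056 without ribosomal RNA genes and -0.14 without replicate 3 (lowest -0.14, highest 0.19 without 1 replicate), res1 in V36.5 against V25 at 0.032 with at least 10 counts in every library, yox1 in G1_36.5 against T4D36.5 at 0.0090 without ribosomal RNA genes, and res2 in T4D25 against T0-N at -0.010 without replicate 2 (from -0.010 to 0.082).

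With library sizes from spike-in RNAs, T4D25 against T0-N gave 0.22 for rep2, 0.67 for nrm1 and 0.70 for yox1, and T4D36.5 against T4D25 gave -0.046 for res2, -0.59 for nrm1 and -0.25 for yox1. The median gene then moved to 0.96 and -0.95. The genes called were 5380 (98.5% higher, against 48.9% of 3408) and 5239 (9.81% higher, against 47.9% of 4466), and the tests among strains called 2059 genes in T0-N, 50 in T4D25 and 5217 in T4D36.5. That scaling could not be fitted for cycling or G1 libraries, which held at most 33 spike-in counts. How much was added to each library is not given in the sources used here.

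The replicate block raised the genes that differed among strains to 1291 in G1_36.5 (723 without it), 1174 in V36.5 (646), 390 in T0-N (180) and 188 in T4D25 (115), and those whose T4D36.5 change differed among strains to 1209 (702). It changed no call of the 6 genes beyond the 4 given above. With at least 10 counts in every library, strains differed in 96 genes in T0-N and 49 in T4D25. That filter also moved the genes in both fits by a median log2 of 0.10 in G1_36.5 against V36.5 and V36.5 against V25 and 0.12 in T4D36.5 against T4D25. Without 1 replicate (of all conditions or of T4D36.5 alone) the genes that differed among strains ranged from 214 to 587 in G1_36.5, 158 to 493 in V36.5, 530 to 993 in V25, 35 to 158 in T0-N, 36 to 122 in T4D25 and 841 to 1944 in T4D36.5 (2079 with all), those in T4D25 against T0-N from 2147 to 3422, and those whose T4D36.5 change differed among strains from 81 to 498. The causes of these shifts were not tested. The DESeq2 likelihood ratio test among strains was not run.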
